A study of Mus musculus with 16 samples.

Results

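Cytochrome c oxidase, ATP synthase and cytochrome b supply 6 of the protein-coding genes of the mouse mitochondrial genome: mt-Co1, mt-Co2, mt-Co3, mt-Atp6, mt-Atp8 and mt-Cytb. These 6 genes were taken by name from a table of 35920 genes, and each was followed through all 16 libraries as its normalized count and as its share of the 6 summed. The libraries come from mouse testis, separated with the monoclonal antibody J2, which recognizes RNA duplexes of any sequence. What the antibody held (J2) and what it did not hold (flow-through) were sequenced apart. There were 3 conditions: testis at postnatal day 18 (P18) from mice labelled wild type, testis of the same age from mice labelled Dcr-/- (called knock-out here), and testis of adults labelled wild type. Each P18 group had 3 libraries per fraction and each adult group had 2. The P18 mice carry the strain label C57BL/6 x 129S4/SvJae and the adults have the strain "unknown", so age and strain cannot be told apart. The labels name no promoter, Cre line or deleted exon for the knock-out, and no exact adult age. They describe the flow-through as depleted of rRNA and of double-stranded RNA. They do not say that libraries of a group come from separate animals, so the p-values below measure only how these samples spread, and that spread may be technical.

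Mitochondrial DNA is transcribed from both strands into long RNAs, which are cut into mRNAs mostly at the tRNAs that lie between them. RNA of one strand can pair with RNA of the other, and this is a known source of double-stranded RNA in mammalian cells. mt-Co1, mt-Co2 and mt-Co3 encode the catalytic core of cytochrome c oxidase (complex IV), where oxygen is reduced. mt-Atp6 and mt-Atp8 encode membrane subunits of ATP synthase (complex V) and are carried on a shared mRNA, and mt-Cytb encodes the only mitochondrially encoded subunit of complex III. All 6 are encoded in the same direction. Counts are per gene, and the 6 are called mRNAs below although mt-Atp6 and mt-Atp8 share an mRNA.

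In the GRCm38.p6 annotation of the mitochondrial chromosome, mt-Co1 spans positions 5328 to 6872 and mt-Co2 spans 7013 to 7696. mt-Atp8 follows at 7766 to 7969 and shares 43 bases with mt-Atp6 at 7927 to 8607. mt-Atp6 in turn shares 1 base with mt-Co3 at 8607 to 9390. mt-Cytb stands apart from these 5, at 14145 to 15288. The genes are 1545 (mt-Co1), 684 (mt-Co2), 204 (mt-Atp8), 681 (mt-Atp6), 784 (mt-Co3) and 1144 (mt-Cytb) bases long, and none has an intron. Reads in the overlaps could be counted for either neighbour, and for mt-Atp8 these are 43 of its 204 bases.

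The deposited totals were 6.05 to 34.9 M (M, 1e+06) normalized counts in flow-through against 0.446 to 0.824 M in J2, for about 0.998 to 5.87 M and 1.23 to 4.54 M reads. The 10 highest features held 95.8% to 98.8% of a flow-through library and 43.6% to 67.5% of a J2 library. Adult J2 replicate 2 stood apart: its 6 members summed to 20360 normalized counts against 1036 to 2677 in the other 7 J2 libraries, and mitochondrial genes took 10.8% of it against 0.835% to 1.24%. It also had 22683 genes above 0, against 5953 to 12403 in the other libraries of both fractions. Where this library moves a result, the value without it is given beside it. Germ cell markers (Ddx4, Dazl, Tex101 and Mael) were present in every group, and of these 4 only Dazl was at 0 in any library (1 of 16). The 7 spermatid markers summed to 4.29 to 13.9 in wild-type P18 flow-through and to 2037 to 2142 in adult flow-through, and all 7 were at 0 in knock-out J2. Dicer1, the gene named by the knock-out label, was too low to check it: wild-type P18 flow-through held 5.10, 12.4 and 0, and knock-out flow-through held 0, 3.68 and 8.33. In J2, Dicer1 was at 11.3, 0 and 8.64 in wild type and at 3.39, 0 and 0 in knock-out P18.

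mt-Co1 made up most of the 6 mRNAs in every J2 library and a minority of them in every flow-through library. Its share was 22.2% to 45.3% of the 6 in flow-through (median 29.1%, n = 8) and 69.1% to 86.3% in J2 (median 75.3%, n = 8), with no overlap. A share within a library does not depend on a factor common to all genes of that library. Factors that differ between genes would not cancel, and whether the deposited values hold such factors was not tested. The mean difference over the 3 conditions was 46.0 percentage points, and the exact two-sided permutation test, which exchanged fraction labels within each condition over 2400 relabellings, gave p = 0.000833, the smallest this design allows. The difference was 41.8 points in wild-type P18, 46.2 in knock-out P18 and 49.9 in adults. Without adult J2 replicate 2 the mean difference was 44.9 points. The 6 shares sum to the whole and are not independent, and the p-values of the 6 tests are unadjusted.

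**Figure D1:**
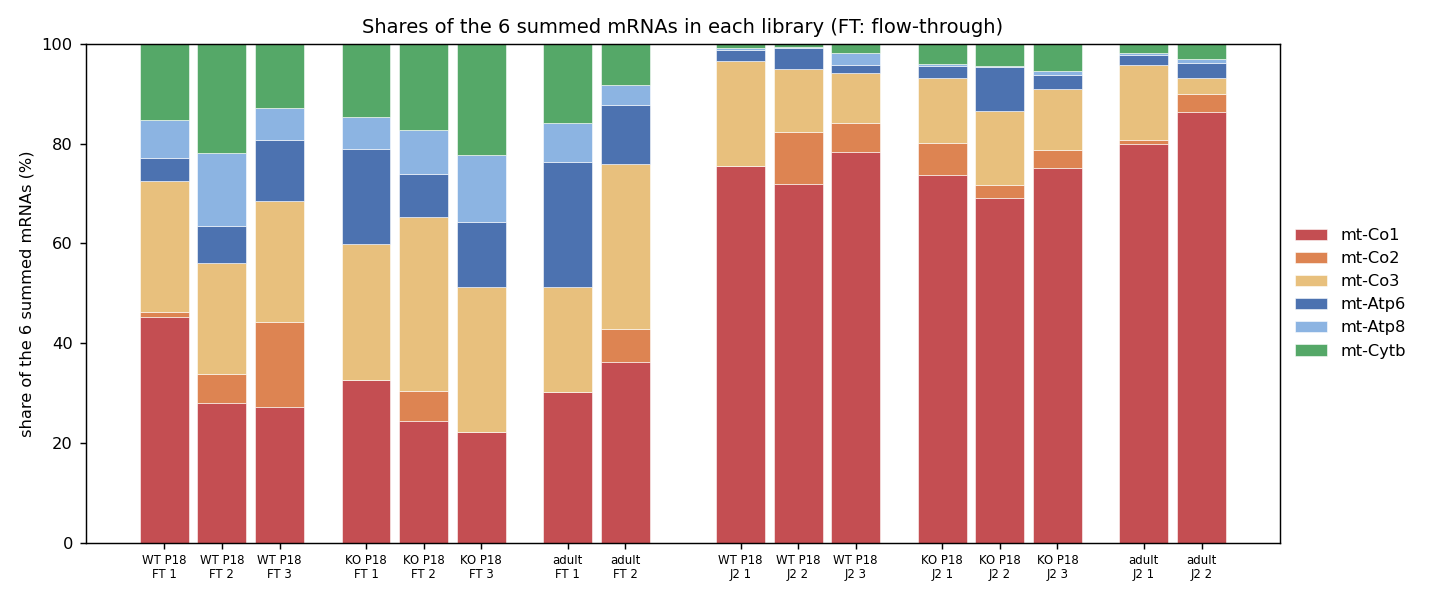
Share of each mRNA in the sum of the 6 (y axis, percent) for each of the 16 libraries (x axis, by condition, fraction and replicate; FT, flow-through). The bottom segment, mt-Co1, reaches at most 45.3% in the 8 flow-through libraries and at least 69.1% in the 8 J2 libraries.

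Within complex IV the subunits parted. The share of mt-Co3 was 21.0% to 34.9% in flow-through (median 26.7%) and 3.26% to 21.0% in J2 (median 12.9%), a mean difference of -14.8 points (exact permutation p = 0.000833), and of -12.9 points without adult J2 replicate 2 (exact permutation p = 0.00333), which held the lowest J2 share. The gap between the fractions is narrow for mt-Co3: the lowest flow-through library held 20.99% (adult replicate 1) and the highest J2 library 20.97% (wild-type replicate 1). mt-Co2 was listed at 0 in 4 libraries, namely knock-out flow-through replicates 1 and 3, adult flow-through replicate 1 and wild-type J2 replicate 1. Its share ran from 0 to 17.0% in flow-through libraries against 0 to 10.5% in J2, and its mean difference of -0.48 points did not pass (exact permutation p = 0.833).

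The shares of the other 3 mRNAs were lower in J2. mt-Cytb took 8.21% to 22.3% of the sum in flow-through (median 15.6%) and 0.596% to 5.39% in J2 (median 2.42%), without overlap, a mean difference of -12.9 points (exact permutation p = 0.000833). mt-Atp8 took 3.93% to 14.5% in flow-through (median 7.72%) and 0.249% to 2.39% in J2 (median 0.478%), also without overlap, a mean difference of -7.59 points (exact permutation p = 0.000833). mt-Atp6 took 4.76% to 25.0% in flow-through (median 12.2%) and 1.62% to 8.78% in J2 (median 2.59%), where the fractions overlapped, and its mean difference was -10.2 points (exact permutation p = 0.00167). Without adult J2 replicate 2 the 3 differences were -13.1, -7.69 and -10.3 points.

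Since mt-Co1 fills most of J2, the remaining 5 were also compared among themselves, a choice made after seeing the data. Of the sum without mt-Co1, mt-Cytb and mt-Atp8 still took less in J2: the mean differences were -10.1 points (exact permutation p = 0.0117) and -8.36 points (exact permutation p = 0.00333). That of mt-Atp6 was -5.25 points (exact permutation p = 0.253). mt-Co3 turned the other way, at 12.5 points (exact permutation p = 0.19), and mt-Co2 was at 11.2 points (exact permutation p = 0.0658), and neither passed. The lower share of mt-Co3 in J2 thus holds against mt-Co1 and not against the other 4 mRNAs. Among the 5, mt-Cytb ran from 12.9% to 30.5% in flow-through, against 2.12% to 21.6% in J2, and mt-Atp8 from 6.15% to 20.2% and from 0.805% to 11.1%, so both overlapped.

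As ratios within a library, mt-Co1 was 0.992 to 4.40 times mt-Cytb in flow-through and 13.9 to 121 times in J2. The ratio of mt-Co1 to mt-Co3 was 0.697 to 1.73 in flow-through and 3.61 to 26.5 in J2, where the highest without adult J2 replicate 2 was 7.83. For both ratios the 8 J2 libraries lay above the 8 flow-through libraries. The overlapping pair mt-Atp8 and mt-Atp6 did not separate so: mt-Atp8 was 0.314 to 1.92 times mt-Atp6 in flow-through and 0.0283 to 1.48 times in J2, with 1.48 in wild-type J2 replicate 3. mt-Co3 was 1.53 to 8.38 times mt-Atp8 in flow-through and 3.59 to 59.7 times in J2, an overlapping range.

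The distance between libraries in these 6 shares (the sum of absolute differences divided by 2, in points) was 29.4 to 67.8 for the 64 pairs of a flow-through and a J2 library. It was 8.65 to 24.7 among the 28 pairs of flow-through libraries and 3.65 to 18.9 among the 28 pairs of J2 libraries. Every pair across fractions was thus farther apart than any pair within a fraction, with conditions mixed.

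Per kilobase of gene, the order of the 6 differed between the fractions. mt-Co1 was first in all 8 J2 libraries, at 507 to 11374 normalized counts per kb (median 1208), and mt-Co3 was second in 7 of them, at 277 to 846 (median 382). The next 4 in J2 were mt-Co2 with a median of 177 (0 to 1080), mt-Atp6 with 100.4 (33.0 to 883), mt-Cytb with 55.5 (6.77 to 524) and mt-Atp8 with 47.1 (22.6 to 904). These 4 overlapped widely and changed places between libraries. Without adult J2 replicate 2 the highest J2 values per kb were 1300.0 for mt-Co1, 435 for mt-Co3, 309 for mt-Co2, 290.0 for mt-Atp8, 239 for mt-Atp6 and 126 for mt-Cytb. In flow-through, mt-Co3 and mt-Atp8 had the highest medians per kb, 1075 (270 to 1973) and 1016 (389 to 3508). mt-Co1 followed with 633 (198 to 1026), mt-Atp6 with 594 (88.7 to 1022), mt-Cytb with 387 (140 to 1041) and mt-Co2 with 156 (0 to 937), and neighbours in this order overlapped. With shares taken per length, the mean difference of mt-Co1 was 45.8 points (exact permutation p = 0.000833) and that of mt-Co3 was -6.89 points (exact permutation p = 0.143).

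Levels were then compared on the deposited scale, within each condition. mt-Co1 was at 574, 974 and 1028 normalized counts in wild-type flow-through and at 784, 1451 and 1938 in wild-type J2. In knock-out it was at 898, 983 and 1181 in flow-through and at 1916, 1280 and 2009 in J2, and in adults at 305 and 1585 against 1816 and 17573. J2 lay above flow-through without overlap in knock-out and adults, and overlapped with it in wild type. How many of all genes separate the fractions within a condition was not counted, here or for the members below. The log2 changes of mt-Co1, J2 against flow-through on log2(value + 1), were 0.65 ± 0.71 (SE) in wild type, 0.75 ± 0.71 in knock-out and 3.02 ± 0.87 in adults, with limma adjusted p of 0.735, 0.734 and 0.312. The adult value was 1.38 without adult J2 replicate 2 (limma adjusted p = 0.603) and 4.66 without replicate 1 (limma adjusted p = 0.0487), and 1.83 and 4.21 without flow-through replicates 1 and 2 (limma adjusted p 1 and 0.0914). It passed as higher in J2 in all 3 conditions after each library was rescaled to a common total (limma adjusted p 0.00112, 0.000773 and 0.00016), where 26.9%, 29.9% and 36.3% of all genes were also called higher, and in knock-out and adults with quantile normalization (limma adjusted p 0.00896 and 0.00268), where 0.672% and 0.451% of all genes were called.

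mt-Cytb was the only one of the 6 past the adjusted threshold of 0.05 in any comparison with a pseudocount of 1, the filter at 10 and all libraries of the fit. In wild-type P18 it was at 193, 762 and 485 in flow-through and at 7.74, 12.0 and 45.5 in J2, so every J2 library was below every flow-through library. It was lower in J2 with a log2 change of -4.58 ± 0.88 (SE; limma adjusted p = 0.0157), and the direction was the same, though small (-0.70), after rescaling to a common total. It no longer passed when flow-through replicate 2 or 3, or J2 replicate 1 or 2, was left out (limma adjusted p 0.0606 to 0.0711), after that rescaling (0.688) and with no filter on low values (0.0913). Peritubular myoid markers (Acta2, Myh11) were also lower in wild-type J2, with sums of 69.6 to 115 against 142 to 426 in flow-through. Germ cell markers were higher, with 474 to 604 against 185 to 315, as were spermatocyte markers (930 to 1831 against 411 to 619). Macrophage markers (0 to 8.20 against 14.5 to 65.7) and spermatid markers (0 to 1.67 against 4.29 to 13.9) were lower. Sertoli, Leydig and red cell markers overlapped. Both fractions were divided from testis RNA, and the part of these markers in the result was not tested. In knock-out P18, mt-Cytb was at 402, 698.5 and 1191 in flow-through and at 105, 81.4 and 144 in J2 (log2 change -2.68 ± 0.88, limma adjusted p = 0.235, and 1.51 after rescaling). Adult flow-through held 161 and 360.0, and adult J2 held 43.0 and 599.5, where the high value is the library that stood apart. Their log2 change of -0.57 ± 1.08 had a limma adjusted p of 0.960, was -2.46 without that library (limma adjusted p = 0.479) and 3.96 after rescaling.

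mt-Atp8 was at 96.2, 505 and 239 in wild-type flow-through and at 5.09, 5.34 and 59.2 in wild-type J2. In knock-out it was at 175, 357 and 716 in flow-through and at 12.1, 4.61 and 20.6 in J2, and in adults at 79.4 and 172 against 7.13 and 185. The groups did not overlap in wild type or knock-out. The log2 changes, -4.10 ± 1.11 in wild type, -4.93 ± 1.11 in knock-out and -1.60 ± 1.36 in adults (-3.86 without adult J2 replicate 2), missed the threshold (limma adjusted p 0.0819, 0.0661 and 0.886), and the adult value turned to 2.82 after rescaling. The knock-out value passed with a pseudocount of 10, a filter at 50, quantile normalization or only these 2 groups fitted (limma adjusted p 0.00215 to 0.0357). The wild-type value passed with a filter at 50 (limma adjusted p = 0.0324) and without J2 replicate 3, the library at 59.2 (limma adjusted p = 0.0364).

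mt-Atp6 was at 60.4, 263 and 465 in wild-type flow-through and at 22.5, 82.2 and 40.0 in J2, which overlapped. Knock-out held 527, 344 and 696 against 58.0, 163 and 78.8, and adults held 253 and 527 against 47.0 and 601. Its log2 changes were -2.18 ± 0.89, -2.46 ± 0.89 and -1.11 ± 1.09, with none past the threshold (limma adjusted p 0.266, 0.292 and 0.909), and the adult value was -2.93 without adult J2 replicate 2. With only the knock-out groups fitted, mt-Atp6 and mt-Cytb passed there (limma adjusted p 0.0482 and 0.0243).

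mt-Co3 was at 331, 772 and 913 in wild-type flow-through and at 217, 255 and 247 in J2, all lower. Knock-out held 748, 1410 and 1547 against 341, 275 and 324, again all lower, and adults held 212 and 1444 against 338 and 663, which overlapped. Its log2 changes were -1.36 ± 0.65, -1.91 ± 0.65 and -0.23 ± 0.79 (limma adjusted p 0.358, 0.252 and 0.973), the last -0.71 without adult J2 replicate 2. The signs of mt-Co3 and mt-Atp6 turned positive in all 3 conditions after rescaling to a common total, where mt-Co3 passed as higher in J2 in each (limma adjusted p 0.0323, 0.0495 and 0.0052), as did 26.9%, 29.9% and 36.3% of all genes, and that of mt-Co3 in adults also with quantile normalization.

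For mt-Co2, flow-through held 13.5, 200 and 641 in wild type, 0, 247 and 0 in knock-out and 0 and 297 in adults. J2 held 0, 212 and 141 in wild type, 166, 48.8 and 101 in knock-out and 20.8 and 739 in adults. All its groups spread widely except knock-out J2, and its log2 changes of -1.99 ± 2.33, 3.91 ± 2.33 and 2.88 ± 2.85 did not pass (limma adjusted p 0.754, 0.55 and 0.909). The wild-type value turned positive after rescaling, and the adult value was 0.33 without adult J2 replicate 2.

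**Figure D2:**
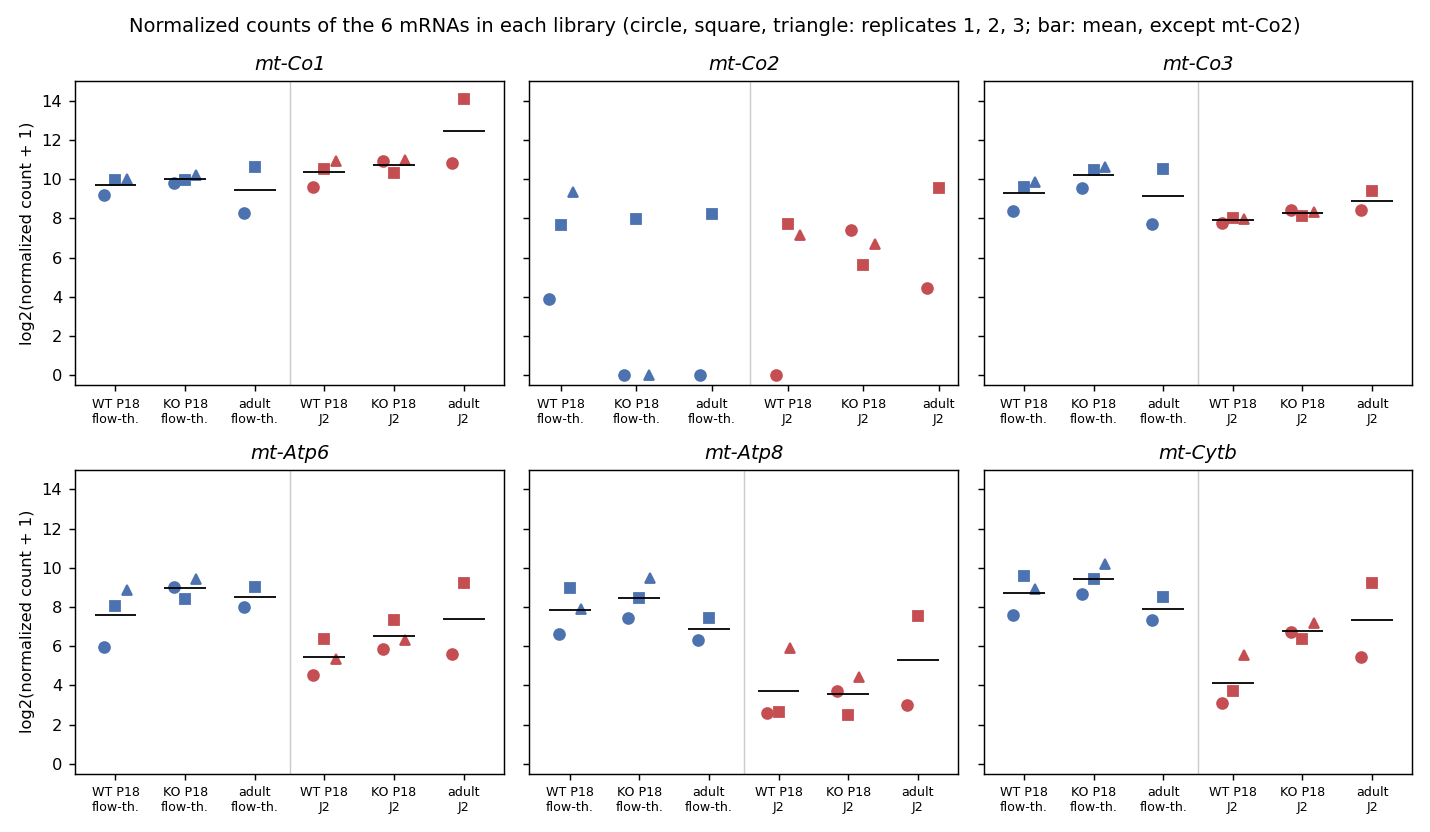
Normalized counts of the 6 mRNAs on a log2(value + 1) axis, by condition and fraction (blue, flow-through; red, J2), 1 point per library; bars are group means of the logged values, left out for mt-Co2, which is listed at 0 in 4 libraries. mt-Co3, mt-Cytb and mt-Atp8 lie lower in J2 in both P18 conditions without overlap, and the square in adult J2 is the library that stood apart.

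Across all genes tested, 0.903% were called in wild-type P18, 0.357% in knock-out P18 and 0.315% in adults. Against these shares stand 1 of 6 members (mt-Cytb) in wild type and 0 of 6 in the other conditions by limma. An unadjusted p under 0.05 was found for 4 of 6 in wild type, 4 of 6 in knock-out and 1 of 6 in adults, against 13.9%, 11.5% and 6.64% of all genes. The median log2 change of the 6 was -2.09 in wild type, -2.18 in knock-out and -0.40 in adults, and that of all genes was -0.05, -0.15 and 0.05. Rescaling to a common total moved the medians of all genes to 1.87, 2.16 and 2.74, so these changes are relative to the median gene.

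Depth differs behind these levels. A read was worth about 2.005 to 8.31 normalized counts in flow-through but 0.116 to 0.516 in J2. These values are approximate: they rest on 4237 genes in adult J2 replicate 2 and on 16 to 95 genes in each other library. The 8 flow-through libraries thus held about 63.1 to 741 reads of mt-Co1 and 16.1 to 259 of mt-Atp8, and the 8 J2 libraries about 1842 to 151703 and 12.0 to 1593. The zeros of mt-Co2 came at unlike depths. Knock-out flow-through replicates 1 and 3 and adult flow-through replicate 1 held about 92.2, 559 and 43.9 reads of mt-Co3, and wild-type J2 replicate 1 about 511. Wild-type flow-through replicate 3, with about 110 reads of mt-Co3, held about 77.1 of mt-Co2. Why mt-Co2 was at 0 was not tested.

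**Figure D3:**
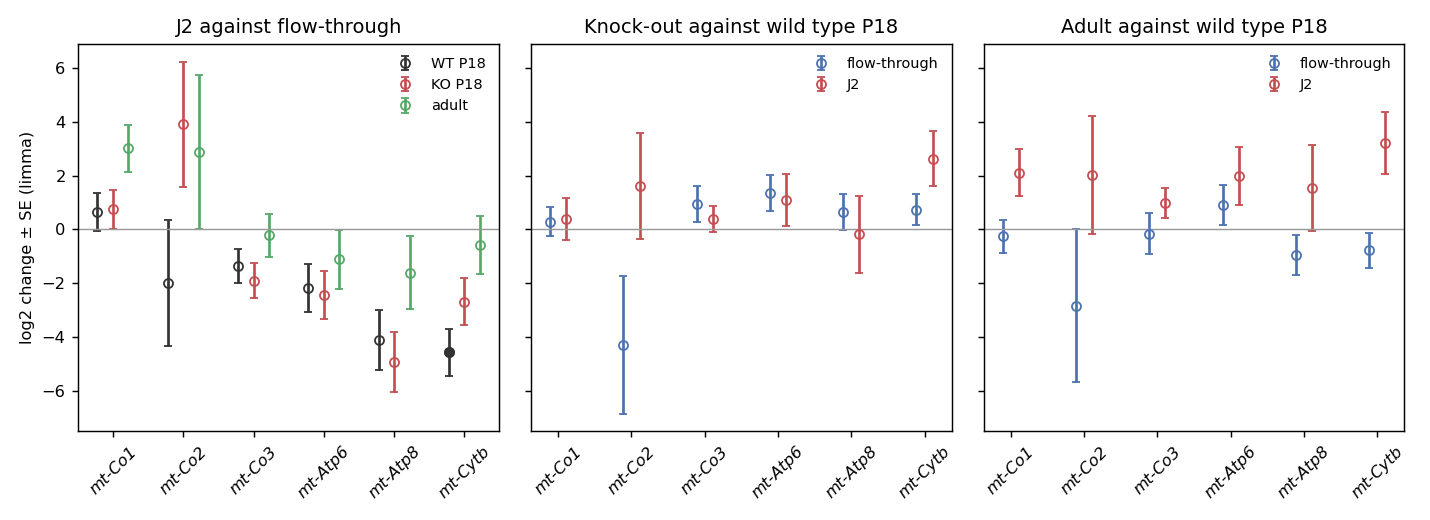
Log2 change ± SE (limma, on log2(value + 1)) of each mRNA for J2 against flow-through within 3 conditions (left), knock-out against wild-type P18 (middle) and adult against wild-type P18 (right) within each fraction. The filled point, mt-Cytb in wild-type P18 at -4.58, is the only one past the adjusted threshold of 0.05.

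Set against the mitochondrial rRNAs of the same library, the 6 mRNAs stood higher in J2 without overlap. This ratio also avoids a factor common to all genes of the library. The 6 mRNAs summed to 0.667 to 4.99 normalized counts per 100 of mt-Rnr1 and mt-Rnr2 in flow-through and to 31.8 to 132 in J2. mt-Co1 alone gave 0.201 to 1.80 in flow-through and 24.1 to 103 in J2, and the other 5 summed gave 0.466 to 3.19 and 7.76 to 28.4. mt-Co3 at 0.140 to 1.64 against 1.98 to 13.2 and mt-Atp6 at 0.0612 to 0.599 against 0.691 to 4.02 also did not overlap. mt-Cytb at 0.106 to 0.486 against 0.238 to 3.42, mt-Atp8 at 0.0524 to 0.322 against 0.114 to 3.16, and mt-Co2 from 0 to 0.459 against 0 to 7.52 overlapped. The denominator itself differed: the 2 rRNAs summed to 87934 to 260926 in flow-through and to 1874 to 4228 in 7 J2 libraries, with 33485 in adult J2 replicate 2. Whether the stated rRNA depletion acts on mitochondrial rRNA was not tested. In adult J2 replicate 2 the 6 mRNAs stood at 60.8 per 100, and in adult J2 replicate 1 at 63.7, while their summed levels were 20360 and 2273.

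**Figure D4:**
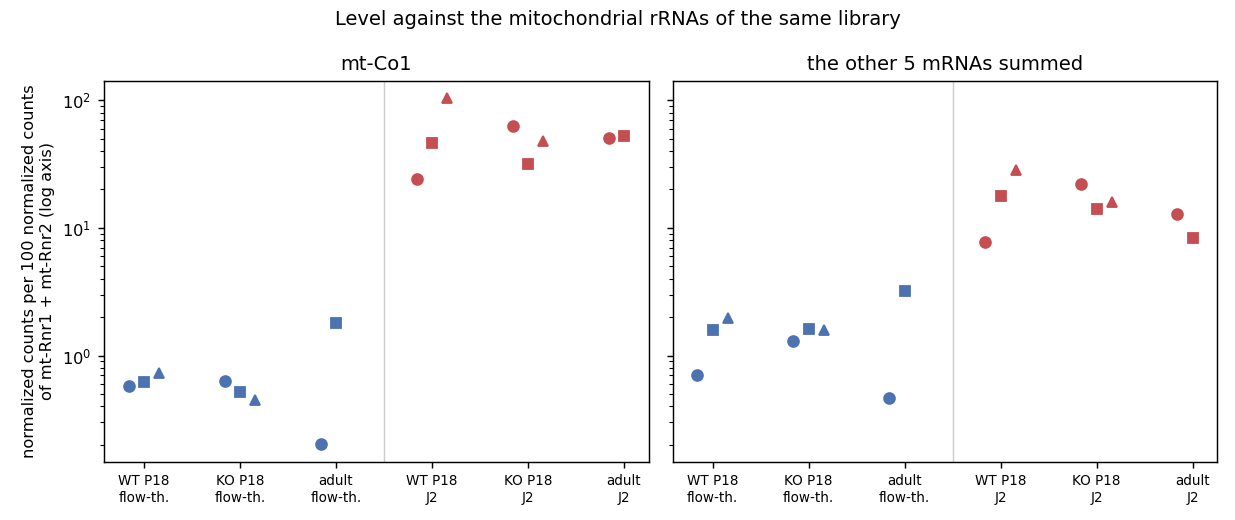
Normalized counts of mt-Co1 (left) and of the other 5 mRNAs summed (right) per 100 normalized counts of the 2 mitochondrial rRNAs, on a log axis, 1 point per library by condition and fraction. mt-Co1 lies at 0.201 to 1.80 in flow-through and 24.1 to 103 in J2, and the other 5 at 0.466 to 3.19 and 7.76 to 28.4.

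The 7 mitochondrially encoded complex I genes were measured in the same libraries. The 6 members were 37.6% to 67.9% of the sum of all 13 protein-coding genes in flow-through (median 54.6%) and 68.5% to 87.0% in J2 (median 78.9%), without overlap. With mt-Co1 left out, the other 5 were 25.6% to 60.6% of the remaining sum in flow-through (median 47.2%) against 34.6% to 65.1% in J2 (median 48.0%), and the fractions overlapped. mt-Nd6, encoded in the opposite direction to the members, ran from 23.0 to 85.8 in flow-through, against 11.8 to 343 in J2 (229 at most without adult J2 replicate 2). mt-Cytb, whose gene is the nearest of the 6 to mt-Nd6, was 3.35 to 15.7 times mt-Nd6 in flow-through and 0.253 to 1.75 times in J2.

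Knock-out was compared with wild type at P18 to see what differs where Dicer, which cleaves long RNA duplexes and microRNA precursors, is labelled as lost. In flow-through, 0 of 6 members and 0% of 7141 genes passed, with 0 of 6 members and 6.11% of all genes at an unadjusted p under 0.05 (limma). The log2 changes of mt-Co3, mt-Atp6, mt-Atp8 and mt-Cytb were 0.93 ± 0.67, 1.36 ± 0.67, 0.65 ± 0.67 and 0.74 ± 0.58, beside a median of 0.33 over all genes (limma adjusted p 0.802 to 0.890). That of mt-Co1 was 0.29 ± 0.54 and turned to -0.38 after rescaling, and that of mt-Co2 was -4.30 ± 2.55. No member's values separated the groups. The share of mt-Co3 did, at 27.2% to 34.9% in knock-out and 22.2% to 26.1% in wild type, while the other shares overlapped. How many of all genes separate the groups was not counted.

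In J2, again 0 of 6 members and 0% of 6882 genes passed, with 1 of 6 members and 6.39% of genes at an unadjusted p under 0.05 (limma). The member with the lowest p was mt-Cytb: knock-out J2 held 81.4 to 144 and wild-type J2 7.74 to 45.5, without overlap (log2 change 2.63 ± 1.03, limma adjusted p = 0.72). Its share of the 6 was 4.61% ± 0.699 (SD, n = 3) in knock-out J2 and 1.06% ± 0.681 (SD, n = 3) in wild-type J2, also without overlap. For mt-Co1, whose log2 change of 0.39 ± 0.79 came to -0.0018 after rescaling, the shares were 72.6% ± 3.12 (SD, n = 3) and 75.3% ± 3.26 (SD, n = 3), and overlapped. mt-Co3 values did not overlap either, at 275 to 341 against 217 to 255, but its log2 change of 0.38 ± 0.48 came to -0.0063 after rescaling (limma adjusted p 0.940 before rescaling). How many of all genes separate these groups was not counted. The 5 spermatocyte markers summed to 576 to 814 in knock-out J2 and 930 to 1831 in wild-type J2. In flow-through these sums overlapped, at 375 to 762 in knock-out and 411 to 619 in wild type. The 6 Sertoli markers summed to 228 to 282 in knock-out flow-through and 149 to 167 in wild-type flow-through. In J2 the Sertoli sums overlapped, at 290 to 536 in knock-out and 143 to 505 in wild type. The part of these markers in the values was not tested, and in bulk samples fewer cells of a type and less RNA per cell cannot be told apart. The genotype by fraction interaction called 0 of 6 members and 0% of genes, with 0 of 6 members and 4.78% of genes at an unadjusted p under 0.05 (limma), and for mt-Cytb it was 1.89 ± 1.25.

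Adult testis, where the spermatid markers stood far above P18, was compared with the same wild-type P18 libraries that serve the knock-out comparison. In flow-through, 0 of 6 members passed against 3.23% of genes. An unadjusted p under 0.05 (limma) was found for 0 of 6, beside 11.7% of all genes. The log2 changes ran from -2.84 (mt-Co2) to 0.90 (mt-Atp6). No member's values or shares separated the groups, and how many of all genes do so was not counted. In J2, 0 of 6 passed against 5.46% of genes. An unadjusted p under 0.05 (limma) was found for 2 of 6, mt-Co1 and mt-Cytb, beside 14.1% of all genes. All 6 log2 changes were above 0, from 0.98 ± 0.54 (mt-Co3) to 3.22 ± 1.15 (mt-Cytb, limma adjusted p = 0.211), with a median of 2.004 beside 0.33 over all genes. This rests on adult J2 replicate 2: without it mt-Co2 was at -0.52 and mt-Atp8 at -0.70. Without replicate 1 in its place, mt-Co1 was at 3.75 and mt-Cytb at 5.11. Where an adult group is left with 1 library, that library is assumed to vary like the other groups. Spermatid markers summed to 1007 to 1758 in adult J2 and 0 to 1.67 in wild-type P18 J2, and red cell markers to 4.03 to 5.79 against 106 to 445. Their part in the result was not tested.

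Shares in adult J2 were 79.9% and 86.3% for mt-Co1, above the 71.9% to 78.4% of wild-type P18 J2. For mt-Cytb they were 1.89% and 2.94%, above 0.596% to 1.84% by a narrow gap, and the shares of the other members overlapped. With 2 libraries against 3 a full separation is weak evidence, and how many of all genes separate these groups was not counted. The age by fraction interaction called 0 of 6 members and 0% of genes (limma), with 2 of 6 members (mt-Co1 and mt-Cytb) and 5.40% of genes at an unadjusted p under 0.05. It was 4.004 ± 1.39 for mt-Cytb (limma adjusted p = 0.787).

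Each of these 3 complexes also needs nuclear-encoded subunits, which are made in the cytosol and imported. Of 46 nuclear genes of complexes III, IV and V and cytochrome c, 42 were tested between fractions. In wild-type P18, 1 rose (Cox6c) and 0 fell, 2.38% of the list beside 0.903% of all genes, and their median log2 change was 1.85 beside -0.05 for all genes and -2.09 for the 6 mitochondrial members. Cox6c, a small subunit of cytochrome c oxidase, was at 0, 5.68 and 0 in flow-through and at 234, 184 and 175 in J2 (log2 change 6.71 ± 1.12, limma adjusted p = 0.00487). At an unadjusted p under 0.05 stood 18 of the 42 (limma), all 18 of them higher in J2: 42.9% of the list beside 13.9% of all genes. In knock-out P18 0 of 42 passed and 9 had such a p (21.4% beside 11.5% of all genes, median 1.24). In adults 0 of 42 passed and 3 had such a p (7.14%, near the 6.64% of all genes, median 0.30). In J2, adult against wild-type P18, 0 of 41 passed, 3 had an unadjusted p under 0.05 (limma, 7.32% beside 14.1% of all genes) and the median was -1.27, beside 2.004 for the 6 members. The knock-out comparisons in either fraction, the adult comparison in flow-through and both interactions also called 0 of these genes, with 1 to 4 at an unadjusted p under 0.05 (limma).

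A list of 23 nuclear genes for mitochondrial transcription and RNA handling had 17 members tested between fractions, and 0 of them passed in any condition (limma, 1 in each at an unadjusted p under 0.05), with medians of 0.05, -0.32 and -0.32. In J2, adult against wild-type P18, 1 of 13 rose and 0 fell, a share of 7.69% that is near the 5.46% of all genes called. The gene was Tfam, which packages mitochondrial DNA and starts its transcription, at 86.3 and 73.4 in adult J2 and at 0.759, 0 and 0 in wild-type P18 J2 (log2 change 6.06 ± 1.27, limma adjusted p = 0.0175). Adult flow-through held 0 and 14.1 of it.

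Within groups, the 6 mRNAs moved together from library to library. After centring log2 values in each of the 6 groups, each member's Pearson r with the mean of the other 5 over the 16 libraries was 0.65 (mt-Co2) to 0.90 (mt-Co1). With both adult J2 libraries left out it was 0.47 (mt-Atp6) to 0.87 (mt-Co1). A shift common to all genes of a library also enters r, and the r within other sets of genes was not computed. The r values are given as a description. Among 683 genes outside the mitochondrial genome with a mean of at least 50, the 5 most like the mean of the members were Kpna2 (r = 0.87), Stt3b (0.82), Akap12 (0.78), Prrc2c (0.76) and 4933440M02Rik (0.75), over the same 16 libraries. With both adult J2 libraries left out, the 5 values were 0.79, 0.78, 0.64, 0.68 and 0.58.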

How the data were processed

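Testis RNA, divided by the J2 antibody into bound RNA and flow-through, was sequenced in 16 strand-specific libraries (NuGEN Ovation SoLo kit), per the labels' protocols. Per the submitters' processing notes, the authors used FastQC, Trimmomatic, Salmon, DESeq2 and the build mm10, with no version or setting given in the sources used here. The authors deposited normalized counts, a continuous signal with 1 value for each Ensembl gene in each library. Of 35920 identifiers, 35446 matched a symbol, and 0 columns were without a sample and 0 pairs of columns were identical. Depth was approximated from the value of 1 read, found as the unit whose multiples (up to 20, tolerance 1e-06) at least 16 genes hold; whole reads could not be recovered, so no count test was run.

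For tests, 1 was added to each value before taking log2, and limma 3.58.1 (R 4.3.3) was fitted (empirical Bayes with a mean trend, Benjamini-Hochberg over all genes tested, two-sided, threshold 0.05), on genes at 10 or more in at least 2 of the libraries fitted. Fold changes on this scale understate the change of low genes. Contrasts of fractions and interactions used all 16 libraries, and contrasts within a fraction used its 8. Shares were compared by an exact permutation test of the fraction labels within conditions. Both tests were first run on simulated data. Genes named were the 6 members, called genes of the nuclear lists (at most 4 per comparison by size) and the 5 genes most like the members. Alternatives changed the pseudocount, filter, scaling, libraries fitted, replicate block and gene length, and left out each replicate. The members and lists were chosen with earlier results of these data known. No sequence of these genes was used here, and gene positions come from RefSeq's annotation of GRCm38.p6.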

Additional observations from a re-analysis of the deposited data

How the results depend on the processing

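Each of the 54 log2 changes of a member (6 members, 9 comparisons) was recomputed under each alternative, which gave 714 values: 669 kept their sign and 45 changed it, 29 of these by leaving out a library. Rescaling to a common total over genes outside the mitochondrial genome (set to 1000000) accounts for 14 of the other 16. For J2 against flow-through it turned mt-Co2 to 1.40, mt-Co3 to 2.58 and mt-Atp6 to 1.67 in wild type; mt-Co3 to 2.31, mt-Atp6 to 1.74 and mt-Cytb to 1.51 in knock-out; and mt-Co3 to 4.34, mt-Atp6 to 3.44, mt-Atp8 to 2.82 and mt-Cytb to 3.96 in adults. It turned mt-Co1 to -0.38 for knock-out in flow-through, mt-Co1 to -0.0018 and mt-Co3 to -0.0063 for knock-out in J2, and mt-Atp6 to 0.069 in the genotype by fraction interaction, where the medians of all genes moved from 0.33 to -0.12, from 0.13 to 0 and from -0.09 to 0.10. The same medians moved from 0.28 to -0.21 (adult, flow-through), from 0.33 to 0.48 (adult, J2) and from 0.06 to 0.73 (age by fraction). Quantile normalization turned mt-Co3 to 0.25 in adults and mt-Atp6 to 0.0056 in the genotype by fraction interaction. Rescaling divides all genes of a library by 1 factor, so apart from the added 1 it shifts all log2 changes of a comparison alike. In wild-type J2 against flow-through, mt-Co1 went from 0.65 to 4.59 and mt-Co3 from -1.36 to 2.58. mt-Co2, with a value of 0 in these groups, went from -1.99 to 1.40. Why quantile normalization turned signs was not tested.

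The number of members called for J2 against flow-through in wild type was 1, and it was 0 with no filter, 2 with a filter at 50, 2 after rescaling and 0 to 2 without each replicate; of all genes, 5.4% were called with the filter at 50 and 27.0% after rescaling. In knock-out it was 0, and 1 with a pseudocount of 10, 1 with a filter at 50, 2 with quantile normalization, 2 after rescaling and 3 with only the groups compared, where 0.619%, 1.87%, 0.672%, 30.1% and 1.08% of all genes were called. In adults it was 0, and 1 with quantile normalization, 4 after rescaling (0.451% and 36.4% of all genes) and 0 to 1 without each replicate. For adult against wild type in J2 it was 0, and 0 to 2 without each replicate. In the other 5 comparisons no alternative called a member.

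Without each replicate in turn, J2 against flow-through ranged from -3.53 to 0.49 for mt-Co2 in wild type, and in adults from -1.23 to 6.99 for mt-Co2, -1.61 to 1.16 for mt-Co3, -2.93 to 0.72 for mt-Atp6, -3.86 to 0.65 for mt-Atp8 and -2.46 to 1.31 for mt-Cytb. Knock-out in J2 ranged from -0.88 to 2.99 for mt-Co2 and -0.74 to 0.91 for mt-Atp8. Adult in flow-through ranged from -1.44 to 0.93 for mt-Co1, -6.95 to 1.27 for mt-Co2 and -1.53 to 1.23 for mt-Co3, and adult in J2 from -0.52 to 4.57 for mt-Co2 and -0.70 to 3.81 for mt-Atp8. The genotype by fraction interaction ranged from -0.26 to 0.39 for mt-Co1, -0.89 to 0.57 for mt-Atp6 and -1.40 to 0.26 for mt-Atp8, and the age by fraction interaction from -0.25 to 2.52 for mt-Co3 and -0.75 to 2.90 for mt-Atp6.

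The difference in share of mt-Co2 was 2.08 points with values divided by gene length, 11.2 with mt-Co1 left out of the sum, and -1.63 to 1.03 without each replicate. That of mt-Co3 was -6.89 per length and 12.5 with mt-Co1 left out, and that of mt-Atp6 was -5.25 with mt-Co1 left out. The differences of mt-Co1, mt-Atp8 and mt-Cytb kept their direction and their side of the threshold in every alternative run, with mt-Atp8 left out of the sum among them.

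A code in the column headers ties each J2 library to 1 flow-through library, but the labels do not say what it marks. Deviations from group means correlated at only -0.026 to 0.031 between tied libraries over 9526 genes. The permutation tests of shares did not use this code. With this code as a replicate block, wild-type P18 gave 7 genes higher and 17 lower in J2 (50 and 36 without it), knock-out 4 and 16 (16 and 18), and adults 2 and 13 (14 and 16); mt-Cytb in wild type had a limma adjusted p of 0.0182. Values that add nuclear copies of the members were not run, as none of the 7 candidate copies is among the 35920 genes. About 0 to 741 reads per member lie behind a flow-through value, and low values are the least precise in either fraction. mt-Atp8 had a median of about 34.4 reads in J2 and 54.7 in flow-through. In wild-type P18, mt-Cytb had about 18.2, 39.8 and 228 reads in J2 and 32.3, 380 and 58.3 in flow-through.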
